A study of Mus musculus with 4 samples.

Results

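The genes described here encode the mitochondrial respiratory chain and ATP synthase. They were chosen by symbol. All listed genes encoded in mitochondrial DNA were taken. So were listed nuclear protein-coding genes whose symbol marks a subunit of complexes I to V, cytochrome c or an assembly factor of complex I. Assembly factors of complexes III and IV are not members and are described apart. The annotation (GENCODE M21) holds 133 such genes, of which 37 are mitochondrial and 96 nuclear. Of these, 52 had a value in at least 1 of the 2 deposited tables, 14 mitochondrial and 38 nuclear, among 19175 genes listed in all. None of the 22 mitochondrial transfer RNA genes was listed.

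The libraries came from the prelimbic cortex, part of the medial prefrontal cortex, of 8-week-old C57BL/6 animals, with 1 library in each of 4 groups. The stress pair compares mice labelled susceptible to chronic social defeat, a paradigm of repeated attacks by a larger mouse, with mice labelled control. Both samples of the pair are tagged with the stress in the labels, which leave the exposure of the control mice unclear. The virus pair compares mice given an adeno-associated virus (AAV) for CDYL, a chromodomain protein that acts as a transcriptional corepressor, with mice given an AAV for green fluorescent protein (GFP). The labels name no promoter or target cell type for either virus, no time after injection, and not how many mice went into a library. With 1 library per group there is no replicate spread and no test, so each difference below compares 2 libraries.

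The respiratory chain passes electrons from NADH and succinate to oxygen through complexes I to IV and pumps protons across the inner mitochondrial membrane. ATP synthase, complex V, uses that gradient to make ATP, on which ion pumping and synaptic signalling in neurons depend. Mitochondrial DNA encodes a few core subunits and the mitochondrial ribosomal RNAs, transcribed as long polycistronic RNAs from both strands. All other subunits come from the nucleus and are imported, and complex II has nuclear subunits alone.

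Levels are FPKM, fragments scaled to transcript length and library size. A difference is that of log2(FPKM + 1), treated library minus reference library, and it understates the change of genes near or under 1 FPKM. Genes at 1 FPKM or more in either library were counted, and a gene is called higher or lower by the size rule when the difference reached 1.5-fold. The smallest fold between libraries in either table was 1.25, so a gene closer than that carries no value here. Counts and medians are therefore over listed genes, and a missing gene is not shown to be alike in the 2 libraries.

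The libraries were of unequal depth. Steps between low FPKM values put control at about 14250000 fragments and susceptible at 23150000, and the AAV-GFP and AAV-CDYL libraries at 22650000 and 23950000. Cdyl stood at 2.68 FPKM with AAV-GFP and 1052 FPKM with AAV-CDYL. Of 6 cortex markers, 3 were listed in the stress table with summed FPKM of 125 and 91.0, and 5 in the AAV table with 1013 and 706. Rn18s-rs5, a ribosomal RNA related gene, stood at 506 FPKM in control and 129 FPKM in susceptible, and at 691 FPKM with AAV-GFP and 137 FPKM with AAV-CDYL. Its part in the results was not tested.

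Every listed mitochondrial gene was lower in the treated library of both pairs, 10 of 10 in susceptible and 12 of 12 with AAV-CDYL. Over all genes of the stress table, 47.7% were below the reference by any amount and 52.3% above. For the AAV pair these shares were 46.6% and 53.4%. The summed FPKM of the listed mitochondrial genes was 68979 in control and 45098 in susceptible, and 64041 with AAV-GFP and 46453 with AAV-CDYL. The median difference was -0.44 in the stress pair and -0.49 in the AAV pair, beside medians over all genes of 0.24 and 0.30. No fold under 1.25 is listed, so a median over genes on both sides of this gap can jump across it. The medians over all genes are thus not the size of a common shift. Genes that are not members at a mean of 500 FPKM or more, copies of mitochondrial genes left out, had medians of -0.41 and 0.38. Of these, 20 of 29 were below control and 27 of 59 below AAV-GFP. By the size rule 3 of 10 were lower in the stress pair, where 10.8% of all genes were lower and 18.9% higher. For AAV-CDYL 1 of 12 was lower, where 14.4% of all genes were lower and 31.3% higher. No mitochondrial gene was higher. The number past the size rule depended on scaling: after centring on the median gene it was 10 of 10 and 12 of 12, and after scaling to a common upper quartile 3 and 0.

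**Figure D1:**
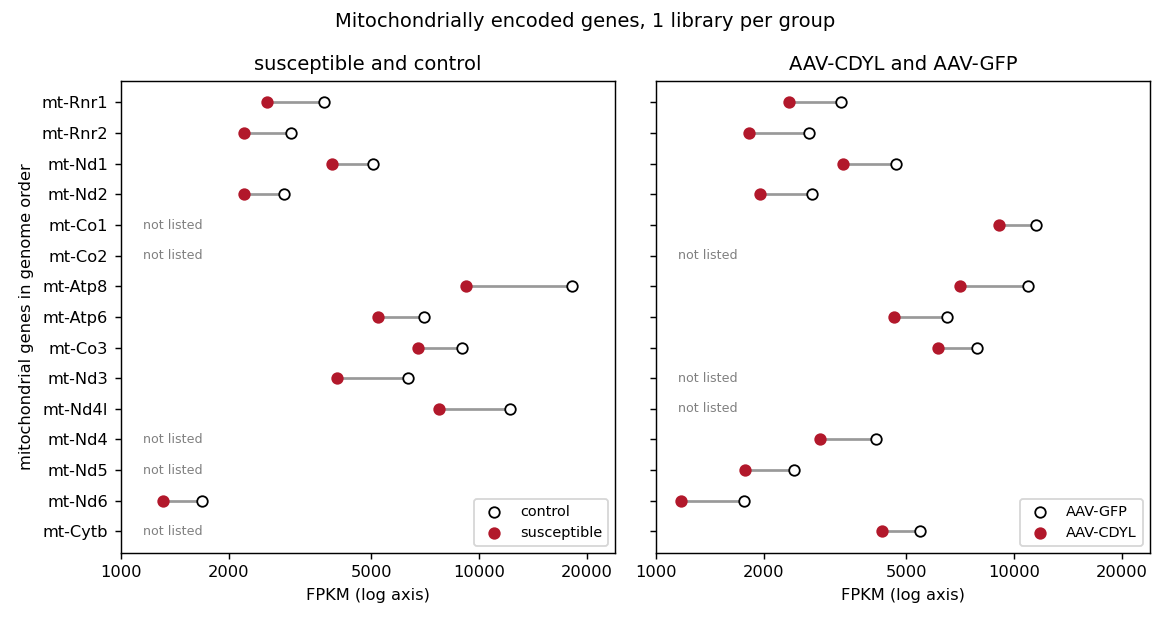
FPKM on a log axis of each mitochondrially encoded gene, in genome order, in the reference library (open circles) and the treated library (red circles) of the stress pair (left) and the AAV pair (right), with 1 library per group. In every listed gene the red circle lies left of the open one, with reference to treated folds of 1.29 to 1.98 on the left and 1.27 to 1.54 on the right.

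The ribosomal RNAs, which form the core of the mitochondrial ribosome, had much the same differences as the messenger RNAs. mt-Rnr1, the small subunit RNA, stood at 3701 FPKM in control and 2564 FPKM in susceptible (difference -0.53), and at 3299 FPKM with AAV-GFP and 2347 FPKM with AAV-CDYL (-0.49). mt-Rnr2, the large subunit RNA, stood at 2988 and 2201 FPKM in the stress pair (-0.44), and at 2681 and 1825 FPKM in the AAV pair (-0.55). Both were lower in both treated libraries, by less than the size rule asks.

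The mitochondrial complex I genes encode the proton-pumping membrane arm. In the stress pair mt-Nd3 stood at 6327 FPKM in control and 4020 FPKM in susceptible (difference -0.65), and mt-Nd4l at 12192 and 7747 FPKM (-0.65). These passed the size rule as lower, while the other 3 listed subunits did not. mt-Nd1 stood at 5042 and 3880 FPKM (-0.38), mt-Nd2 at 2855 and 2204 FPKM (-0.37), and mt-Nd6 at 1683 and 1310 FPKM (-0.36). The AAV table listed 5 subunits, and none passed the size rule. mt-Nd1 stood at 4682 FPKM with AAV-GFP and 3342 FPKM with AAV-CDYL (-0.49), and mt-Nd2 at 2730 and 1956 FPKM (-0.48). mt-Nd4 stood at 4124 and 2868 FPKM (-0.52), and mt-Nd5 at 2429 and 1777 FPKM (-0.45). mt-Nd6 is the only protein gene read from the light strand, and its 1759 and 1174 FPKM (-0.58) lay below the reference like the heavy-strand genes. mt-Nd5 and mt-Nd6 overlap by 14 bases on opposite strands, and the library kit does not mark strand. Long RNAs are made from both strands, so fragments over mt-Nd6 cannot be assigned to a strand, in the overlap or outside it. The mt-Nd6 values are therefore not a measure of light-strand RNA alone.

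The mitochondrial genes of complexes III and IV had the smallest differences in the AAV pair. mt-Cytb, the cytochrome b of complex III, stood at 5450 FPKM with AAV-GFP and 4282 FPKM with AAV-CDYL (difference -0.35). mt-Co1, the catalytic subunit of cytochrome c oxidase, stood at 11552 and 9059 FPKM (-0.35). mt-Co3, another core subunit of that complex, stood at 7894 and 6119 FPKM in the AAV pair (-0.37) and at 8955 and 6744 FPKM in the stress pair (-0.41). mt-Co2 was listed in neither table, and mt-Co1 and mt-Cytb were not listed in the stress table.

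mt-Atp8 and mt-Atp6 encode membrane subunits of ATP synthase, and mt-Atp8 had the largest mitochondrial difference in both pairs. It stood at 18201 FPKM in control and 9207 FPKM in susceptible, 1.98-fold lower (difference -0.98). With AAV-GFP it stood at 10950 FPKM and with AAV-CDYL at 7090 FPKM, 1.54-fold lower (-0.63), the only mitochondrial gene past the size rule in that pair. mt-Atp6 stood at 7034 and 5220 FPKM in the stress pair (-0.43), and at 6493 and 4614 FPKM in the AAV pair (-0.49). The genes share 43 bases in different reading frames, so a fragment there belongs to both. The mt-Atp8 sequence (GENCODE M21, GRCm38, chrM:7766-7969, plus strand) is shown because its estimate rests on a short gene, with the bases shared with mt-Atp6 in capitals.
mt-Atp8: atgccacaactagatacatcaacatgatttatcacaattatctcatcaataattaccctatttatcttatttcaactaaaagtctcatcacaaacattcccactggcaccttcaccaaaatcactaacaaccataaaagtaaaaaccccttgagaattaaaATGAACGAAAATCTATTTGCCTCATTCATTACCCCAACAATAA
mt-Atp8 has 204 bases, mt-Nd4l 297 and mt-Nd3 348. These are the shortest mitochondrial messenger RNAs and the 3 that passed the size rule in the stress pair. Whether their length has a part in the larger differences was not tested.

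Some nuclear pseudogenes on chromosome 1 are near-exact copies of mitochondrial genes, so fragments cannot be assigned between them and the mitochondrial genes with certainty. All 4 listed in the stress table were below control (median difference -0.53), and all 3 in the AAV table were below AAV-GFP (-0.48). Gm10222, the most abundant copy, stood at 13466 FPKM in control and 8593 FPKM in susceptible. Gm28437, listed in both tables, stood at 8957 and 6819 FPKM in the stress pair and at 8022 and 6176 FPKM in the AAV pair.

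The listed nuclear genes were mostly below the reference in the stress pair and mostly above it in the AAV pair. Largely different nuclear genes were listed for the 2 pairs. Of the 10 listed in both, 2 were below in both and 4 above in both. Another 3 were below control and above AAV-GFP, and 1 was the reverse. In the stress pair 24 of 27 listed nuclear genes passed the floor, 17 below control (47.7% over all genes) and 7 above, with a median difference of -0.35. The size rule called 5 lower (Atp5b, Ndufaf2, Sdha, Atp5d and Cox7b) and 2 higher (Uqcrq and Cox4i2), beside 10.8% lower and 18.9% higher over all genes. For AAV-CDYL 20 of 21 passed the floor, 4 below AAV-GFP and 16 above (53.4% over all genes), with a median of 0.37. By the size rule 5 were higher (Cox6b2, Ndufc1, Atp5k, Cox6a2 and Cox7a1) and none lower. That is 5 of 20 higher, beside 31.3% higher and 14.4% lower over all genes. The median over all genes of that pair was 0.30, and after centring the nuclear median was 0.069. Among genes that are not members, the median varied with level. It was 0.41 at a mean of 1 to 10 FPKM, -0.38 at 10 to 100 FPKM and -0.36 at 100 to 1000 FPKM. The shares below AAV-GFP at these levels were 33.2%, 66.1% and 57.2%. The value that centring subtracts is thus not that of genes at higher levels. The mitochondrial median minus the nuclear median was -0.08 in the stress pair and -0.86 in the AAV pair. These values rest on largely different nuclear genes in the 2 pairs. The size-rule split turned with scaling: in the stress pair it was 2 higher and 5 lower as deposited, 5 and 2 after upper quartile scaling, and 0 and 13 after centring. For AAV-CDYL, 5 higher and 0 lower became 2 and 4 after centring.

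**Figure D2:**
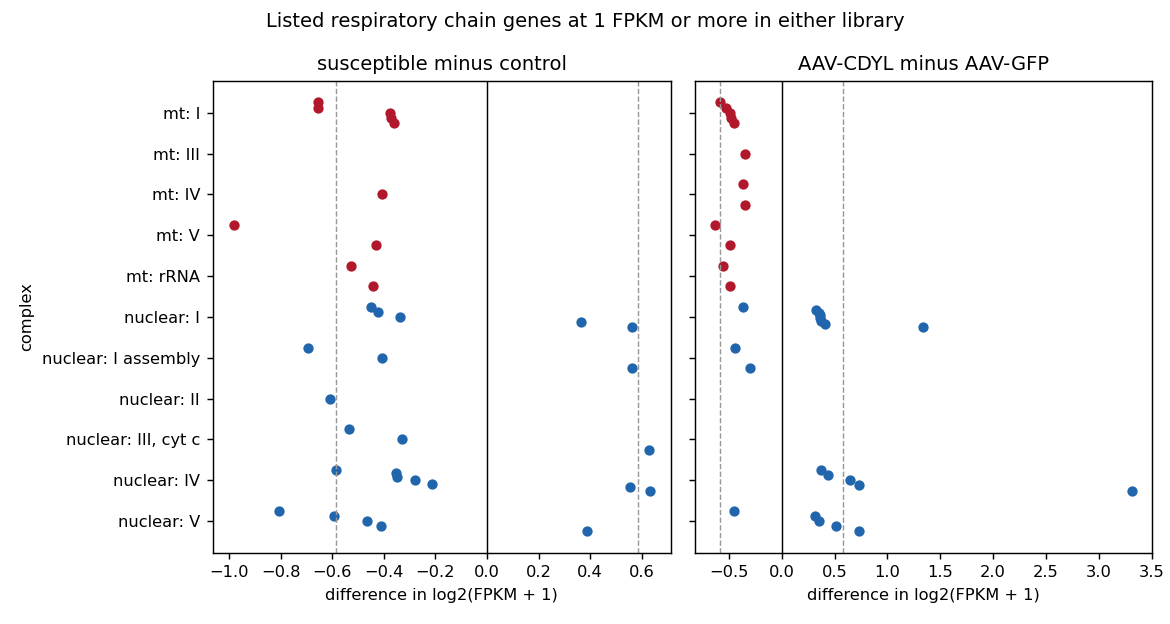
Difference in log2(FPKM + 1) of each listed gene that passed the floor, by complex, with 1 point per gene, mitochondrial genes in red, nuclear genes in blue and dashed lines at 1.5-fold; the panels have different horizontal scales. All red points lie left of 0 in both panels, while blue points lie mostly left on the left (17 of 24) and mostly right on the right (16 of 20).

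Complex I takes electrons from NADH. Among its nuclear subunits in the stress pair, the accessory subunits Ndufa3, Ndufs5 and Ndufa1 were below control. Ndufa3 stood at 230 FPKM in control and 168 FPKM in susceptible (difference -0.45), and Ndufs5 at 282 and 210 FPKM (-0.42). Ndufs7, a core iron-sulfur subunit, was above, at 88.1 and 130.5 FPKM (0.56), as was the accessory subunit Ndufb4 at 49.4 and 64.0 FPKM (0.37). None of these 5 passed the size rule. Of the 8 subunits listed for the AAV pair, 7 were above AAV-GFP, beside 53.4% of all genes. Ndufc1, an accessory subunit of the membrane arm, stood at 29.5 FPKM with AAV-GFP and 76.2 FPKM with AAV-CDYL, 2.58-fold higher (1.34). The other 6 above the reference, Ndufab1, Ndufa13, Ndufb7, Ndufv3, Ndufb4 and Ndufa1, lay between 0.33 and 0.41. Ndufab1, the mitochondrial acyl carrier protein, stood at 78.0 and 104 FPKM (0.41), and Ndufa13 at 44.0 and 57.1 FPKM (0.37). Ndufs1, the largest core subunit, was the exception, at 60.8 and 47.0 FPKM (-0.37).

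Complex I assembly factors help build the complex and are not part of the finished enzyme. Ndufaf2 stood at 46.1 FPKM in control and 28.1 FPKM in susceptible (difference -0.69), lower by the size rule. Ndufaf1 stood at 20.7 and 15.4 FPKM in the stress pair (-0.41) and at 20.4 and 14.8 FPKM in the AAV pair (-0.44), below the reference in both. Ndufaf6 was above control, at 10.4 and 15.8 FPKM (0.56), and below AAV-GFP, at 9.21 and 7.28 FPKM (-0.30).

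Nuclear genes of complex II, complex III and cytochrome c were listed in the stress table alone. Sdha, the flavoprotein of succinate dehydrogenase, stood at 515 FPKM in control and 337 FPKM in susceptible (difference -0.61), lower by the size rule. Uqcr10, a small subunit of complex III, stood at 329 and 261 FPKM (-0.33), and Uqcrq, another, at 143 and 221 FPKM (0.63), higher by the size rule. Cycs, the cytochrome c that carries electrons from complex III to complex IV, stood at 64.5 and 44.2 FPKM (-0.53).

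Complex IV, cytochrome c oxidase, reduces oxygen and has several tissue-specific subunit isoforms. In the stress pair the abundant subunits were below control: Cox8a stood at 1184 and 929 FPKM (difference -0.35), and Ndufa4, now counted with this complex, at 490 and 384 FPKM (-0.35). Cox7b stood at 137 and 91.1 FPKM (-0.59), at the edge of the size rule and lower by it. Cox4i2, the isoform linked to low oxygen, stood at 0.713 and 1.65 FPKM (0.63), which passed the floor only through the susceptible library. About 7 fragments (95% exact Poisson interval 2.81 to 14.4) lay behind its control value and 28 (18.6 to 40.5) behind the susceptible one. Ndufa4l2, a relative of Ndufa4 induced by low oxygen, stood at 1.41 and 2.54 FPKM (0.55). Cox6b2, Cox7b2 and Cox8b did not reach 1 FPKM in either library of the pair, and Cox7b2 and Cox8b were listed at 0 in control.

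In the AAV pair all 5 listed complex IV genes that passed the floor were above AAV-GFP, beside 53.4% of all genes. Cox6b2, the isoform known from testis, stood at 1.62 FPKM with AAV-GFP and 25.0 FPKM with AAV-CDYL, 15.4-fold higher (difference 3.31), the largest difference of any member. About 16 fragments (9.15 to 26.0) lay behind the first value and 260 (229 to 294) behind the other, with intervals that cover counting error only. These counts assume the full transcript length of 435 bases and may be too high. Cox7c stood at 272 and 368 FPKM (0.43), and Cox5b at 160 and 209 FPKM (0.38). Cox6a2 and Cox7a1, isoforms known from heart and skeletal muscle, were low. Cox6a2 stood at 3.42 and 6.33 FPKM (0.73), and shares its locus with other listed genes. Cox7a1 stood at 3.09 and 5.39 FPKM (0.64), from about 31 fragments (21.1 to 44.0) and 57 (43.2 to 73.9). In the stress pair both were below control instead, Cox6a2 at 4.45 and 3.49 FPKM (-0.28) and Cox7a1 at 1.62 and 1.27 FPKM (-0.21).

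ATP synthase held the most abundant nuclear member. Atp5b, the catalytic beta subunit, stood at 2779 FPKM in control and 1587 FPKM in susceptible, 1.75-fold lower (difference -0.81). With AAV-GFP and AAV-CDYL it stood at 1973 and 1446 FPKM (-0.45), below the reference again. Atp5d, the delta subunit of the central stalk, stood at 253 and 167 FPKM in the stress pair (-0.59), lower by the size rule, with a locus shared with another listed gene. Atp5l stood at 436 and 315 FPKM (-0.47) and Atp5e at 482 and 362 FPKM (-0.41). Atp5g2 encodes the c subunit of the rotating ring, and was above the reference in both pairs. It stood at 87.8 and 115 FPKM in the stress pair (0.39), and at 90.8 and 130 FPKM in the AAV pair (0.51). Atp5k, a small membrane subunit, stood at 117 FPKM with AAV-GFP and 195 FPKM with AAV-CDYL, 1.67-fold higher (0.73). Atp5j and Atp5j2 lay at 0.32 and 0.35.

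Nuclear respiratory genes often carry promoter sites for NRF1, GABP or YY1, transcription factors of mitochondrial biogenesis. RefSeq windows (GRCm38.p6, the 250 bases before the start) were found for 32 of the 38 nuclear members, 34 windows in all, and searched on both strands. The NRF1 letters GCATGCGC were in 4 of 34 member windows (11.8%) and in 2.26% of 32851 windows of all genes: Atp5g2, Atp5k, Atp5l and Cycs. The GABP letters CCGGAAG were in 5 of 34 (14.7%, all windows 6.91%), and the YY1 letters AAGATGGC in 1 of 34 (2.94%, all windows 1.56%). A match is a description of letters, not of binding, and no match says only that the letters are not in the window. Windows are shown for 3 members with different values: Atp5k (chr5:108434400-108434649, minus strand), higher in the AAV pair, Cycs (chr6:50566570-50566819, minus strand), below control, and Atp5b (chr10:128083057-128083306, plus strand), below the reference in both. Capitals mark the NRF1 letters, on both strands with overlap in Atp5k. Atp5b holds none of the 3 motifs.
Atp5k: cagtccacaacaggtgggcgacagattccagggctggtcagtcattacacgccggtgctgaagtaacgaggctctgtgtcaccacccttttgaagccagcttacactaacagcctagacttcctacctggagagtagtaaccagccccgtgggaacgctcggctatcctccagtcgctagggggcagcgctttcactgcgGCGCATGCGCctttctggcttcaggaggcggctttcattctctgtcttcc
Cycs: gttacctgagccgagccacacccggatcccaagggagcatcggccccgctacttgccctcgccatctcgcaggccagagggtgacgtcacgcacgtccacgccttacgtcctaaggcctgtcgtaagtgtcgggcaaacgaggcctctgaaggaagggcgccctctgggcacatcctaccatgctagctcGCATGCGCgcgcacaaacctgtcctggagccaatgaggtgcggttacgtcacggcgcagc
Atp5b: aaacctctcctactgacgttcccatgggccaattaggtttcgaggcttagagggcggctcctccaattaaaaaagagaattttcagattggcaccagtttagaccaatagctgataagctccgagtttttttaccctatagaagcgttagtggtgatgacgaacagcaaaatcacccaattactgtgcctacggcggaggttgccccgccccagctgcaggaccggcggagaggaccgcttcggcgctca
Over all matched members, the NRF1 letters were in 2 of 17 windows of genes above AAV-GFP and in 2 of 17 windows of genes below control.

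The 2 pairs share no library, and 18 members had a value in both tables. All 8 mitochondrial ones were below the reference in both. Of the 10 nuclear ones, Atp5b and Ndufaf1 were below in both, and Atp5g2, Ndufb4, Cox6b2 and Cox7b2 above in both, Cox6b2 in the stress pair and Cox7b2 in both from levels under 1 FPKM. Cox6a2, Cox7a1 and Ndufa1 were below control and above AAV-GFP, and Ndufaf6 the reverse. Ndufa1, an accessory subunit of complex I, stood at 138 and 109 FPKM in the stress pair (difference -0.34) and at 123 and 154 FPKM in the AAV pair (0.33). Whether the pairs differ beyond library spread was not tested.

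**Figure D3:**
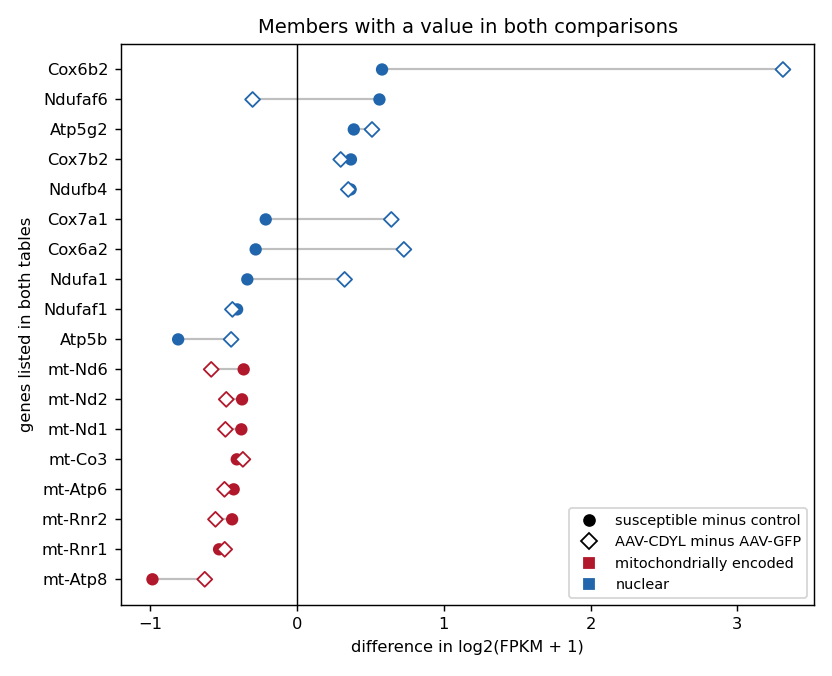
Difference in log2(FPKM + 1) of the 18 genes listed in both tables, with filled circles for susceptible minus control and open diamonds for AAV-CDYL minus AAV-GFP, mitochondrial genes in red and nuclear genes in blue. All 8 red genes have both symbols left of 0, and 4 of the 10 blue genes have symbols on opposite sides.

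Level moved with the nuclear differences in the stress pair and transcript length in the AAV pair, and their part in the results was not tested. With a level chosen after values were seen, all 10 nuclear members of the stress pair at 200 FPKM or more in control were below it, and 7 of the 14 under 200 FPKM. Against AAV-GFP, 1 of the 2 at that level and 3 of the 18 under it were below. Among other genes at a mean of 500 FPKM or more, copies of mitochondrial genes left out, 20 of 29 were below control (median -0.41) and 27 of 59 were below AAV-GFP (median 0.38). At a mean of 100 to 1000 FPKM, 62.4% of other genes were below control and 57.2% below AAV-GFP. These splits use the mean of both libraries, while members were split by the reference library alone. A split by the reference value favours genes below it.

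Length was followed in other protein-coding genes at a mean of 20 FPKM or more, with bins chosen after values were seen. In the AAV pair 16.2% of genes under 1000 bases were below AAV-GFP, 53.4% of those from 1000 to 2000 bases, 81.2% from 2000 to 4000 bases and 94.9% of longer ones. The stress pair had shares of 52.4%, 55.9%, 73.8% and 89.5%. Nuclear respiratory genes are mostly short: those above AAV-GFP had a median length of 662.5 bases and those below it 1683.5 bases. The stress pair ran the other way, with medians of 870 bases above control and 599 bases below it. All 11 under 1000 bases at that level were above AAV-GFP (median 0.36), beside a median of 0.55 for other short genes. Against control, 4 such members were above and 10 below (-0.35), beside -0.32 for other short genes. The mitochondrial messenger RNAs, of 204 to 1824 bases, were below the reference at every length.

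**Figure D4:**
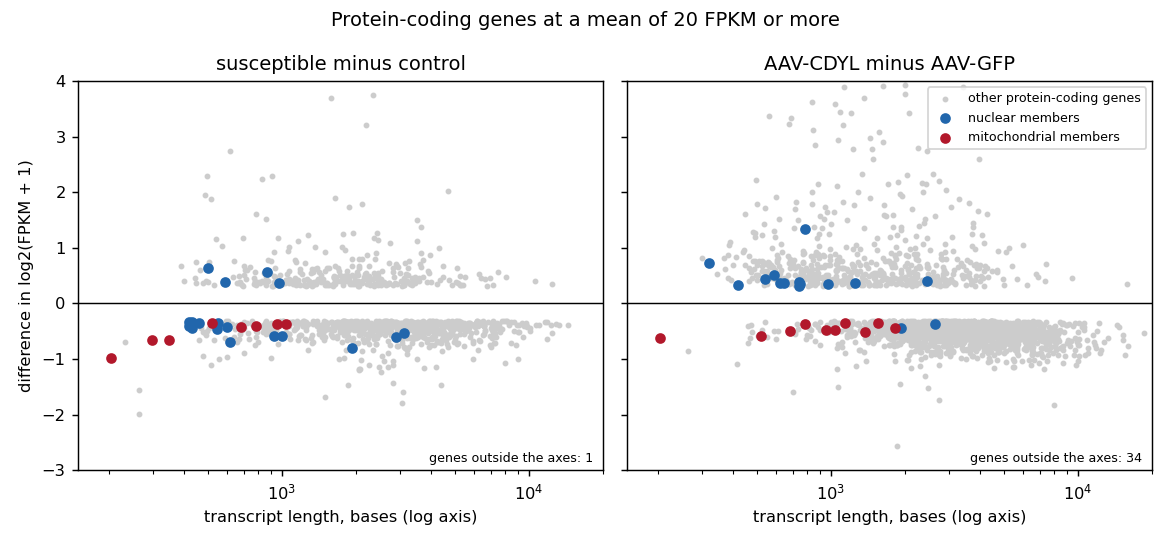
Difference in log2(FPKM + 1) against transcript length on a log axis for protein-coding genes at a mean of 20 FPKM or more, with other genes in grey, nuclear members in blue and mitochondrial members in red. In the AAV pair (right) grey points shift below 0 as length grows, the short blue points lie above 0 and the red points lie below it. The empty band around 0 is the range in which the tables list no gene.

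In the authors' deposited table no member reached a q-value under 0.05 in either pair. Over all genes 0.333% of the stress table and 0.955% of the AAV table did, 41 and 147 genes. At an unadjusted p-value under 0.05 the authors' deposited table held 1 member in the stress pair, mt-Nd3, of 37 and 0 of 33 in the AAV pair, beside 534 of 12318 and 843 of 15396 genes in all.

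Markers of several cell types moved with the pairs. Over all genes, 47.7% were below control and 52.3% above, and 46.6% were below AAV-GFP and 53.4% above. Neuron markers were below the reference in 7 of 7 listed in the stress pair (summed FPKM 1869 and 1325, median difference -0.47) and in 10 of 10 in the AAV pair (4406 and 2814, -0.64). Oligodendrocyte markers were above it in 10 of 10 in both, with sums of 613 and 1583 FPKM in the stress pair and 656 and 2552 FPKM in the AAV pair. Astrocyte markers were above it in 4 of 5 and 5 of 5, with sums of 384 and 603 FPKM and of 161 and 679 FPKM. Endothelial markers were above it in 5 of 5 in both, with sums of 73.2 and 215 FPKM and of 71.1 and 156 FPKM. Microglia and macrophage markers were above control in 4 of 7 (176 and 202 FPKM) and above AAV-GFP in 10 of 10 (197 and 1700 FPKM). Leukocyte markers were not listed in the stress table and were above AAV-GFP in 5 of 5, from a sum of 0.588 to 30.1 FPKM, with Cd79a, Nkg7 and Cd3g listed at 0 with AAV-GFP. All 5 were under 1 FPKM with AAV-GFP and passed the floor only through AAV-CDYL, which fixed their direction. Erythrocyte markers were below control in 4 of 5 (873 and 519 FPKM), and 1 of 1 listed was below AAV-GFP. The latter, Alas2, passed the floor only through AAV-GFP. Several neuron markers are long, such as Map2 (5195 bases) and Syt1 (4782.5 bases), while Tubb3 has 1322 bases. Of other protein-coding genes of 4000 bases or more (mean of 20 FPKM or more), 89.5% were below control and 94.9% below AAV-GFP. From 1000 to 2000 bases these shares were 55.9% and 53.4%. The part of length in the neuron counts was not tested. In bulk tissue, fewer cells of a type and less RNA per cell cannot be told apart. The part of these markers in the respiratory chain differences was not tested.

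Genes that supply or run the respiratory chain are described by lists drawn from the same pathways. Over all genes of the stress pair, 47.7% were below and 52.3% above, with 10.8% lower and 18.9% higher by the size rule. In the AAV pair 46.6% were below and 53.4% above, with 14.4% lower and 31.3% higher. Of 28 genes for mitochondrial DNA transcription and RNA processing, 7 were counted in the stress pair, 3 above and 4 below, none past the size rule. Mterf1b, among those above, passed the floor only through the susceptible library, which fixed its direction. Tfam, which packages mitochondrial DNA and starts its transcription, stood at 29.1 and 21.8 FPKM (difference -0.40), and Polrmt, the mitochondrial RNA polymerase, at 9.58 and 6.64 FPKM (-0.47). The AAV table gave 12, 5 above and 7 below. Polg2, among those above, passed the floor only through AAV-CDYL, which fixed its direction. Tfam stood at 25.9 and 20.4 FPKM (-0.33). Slirp, an RNA-binding protein that stabilises mitochondrial messenger RNAs, stood at 5.15 and 9.41 FPKM (0.76), and Pnpt1, a mitochondrial RNA exonuclease, at 6.28 and 10.6 FPKM (0.67), both higher by the size rule.

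Nuclear regulators of respiratory genes were below control in 8 of 8 counted of 18, with 4 lower by the size rule, beside 47.7% and 10.8% of all genes. Of other protein-coding genes of 2000 to 4000 bases (mean of 20 FPKM or more), 73.8% were below control and 81.2% below AAV-GFP. For longer ones these shares were 89.5% and 94.9%. Many of the regulators, such as Esrrg, Nrf1 and Ppargc1a, lie under that mean, and Sirt3 has 1461 bases. Of other genes at a mean of 1 to 10 FPKM, 40.0% were below control and 33.2% below AAV-GFP. At 10 to 100 FPKM these shares were 62.5% and 66.1%. The part of length and level in the counts of regulators was not tested. Esrrg, an estrogen-related receptor, stood at 8.15 FPKM in control and 3.95 FPKM in susceptible (difference -0.89), and Ppara, a lipid-sensing receptor, at 1.54 and 0.380 FPKM (-0.88). Ppara passed the floor only through the control library. Nrf1 itself stood at 9.04 and 6.00 FPKM (-0.52) and Yy1 at 19.8 and 13.5 FPKM (-0.52). Against AAV-GFP 5 of 7 were below, 2 by the size rule, beside 46.6% and 14.4% of all genes. Ppargc1a, the main coactivator of mitochondrial biogenesis, stood at 11.2 and 6.67 FPKM (-0.67), and Ppargc1b, its relative, at 3.79 and 1.60 FPKM (-0.88). Gabpa, a subunit of GABP, stood at 5.88 and 7.90 FPKM (0.37).

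Assembly factors of complexes IV and III were below control in 7 of 10 and below AAV-GFP in 4 of 6, beside 47.7% and 46.6% of all genes. Coa6, a copper chaperone of complex IV, stood at 28.5 and 17.2 FPKM (difference -0.69) and Sco2, another, at 2.32 and 4.60 FPKM (0.75). Cmc2 stood at 12.6 and 7.83 FPKM in the AAV pair (-0.62) and Ttc19 at 34.7 and 22.3 FPKM (-0.61). Genes of import, carriers and cristae were below in 3 of 3 and 7 of 9, beside the same 47.7% and 46.6%. Timm23, the core of the inner membrane translocase, stood at 68.7 and 40.2 FPKM in the stress pair (-0.76). Slc25a22, a glutamate carrier, stood at 227 and 146 FPKM in the AAV pair (-0.64).

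Mitochondrial ribosomal protein genes, which are nuclear, had 6 above and 6 below control of 78 genes on the list. Against AAV-GFP 11 of 13 were above, 5 of them higher by the size rule, with a median of 0.43, beside 53.4% above and 31.3% higher over all genes. Of other protein-coding genes at a mean of 20 FPKM or more, 16.2% of those under 1000 bases were below AAV-GFP. For those of 4000 bases or more the share was 94.9%. Mrpl52 has 440.5 bases and Mrpl17 4164, so the list spans both classes. The part of length in these counts was not tested. Mrpl17 stood at 22.6 and 49.3 FPKM (difference 1.09) and Mrpl52 at 51.0 and 97.6 FPKM (0.92). Genes of pyruvate dehydrogenase and the citric acid cycle were above control in 5 of 6 and above AAV-GFP in 3 of 9, beside 52.3% and 53.4% of all genes. Idh2, the mitochondrial isocitrate dehydrogenase, stood at 13.6 and 28.6 FPKM in the stress pair (1.02) and at 15.0 and 23.5 FPKM in the AAV pair (0.62).

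Uncoupling and antioxidant genes were above the reference in 5 of 7 and 4 of 6, beside 52.3% and 53.4% of all genes. Ucp3, counted above AAV-GFP at 0.771 and 1.12 FPKM, passed the floor only through AAV-CDYL, which fixed its direction. Ucp2, an inner membrane carrier, stood at 15.6 and 29.3 FPKM in the stress pair (difference 0.87) and at 10.8 and 70.4 FPKM in the AAV pair (2.60). Glycolysis genes were above in 4 of 7 and 3 of 8, beside the same 52.3% and 53.4%. Hk2, counted above control at 0.926 and 1.40 FPKM, passed the floor only through the susceptible library, which fixed its direction. Slc2a1, a glucose transporter, stood at 28.8 and 49.8 FPKM in the stress pair (0.77), and Hk2, a hexokinase, at 1.28 and 4.69 FPKM in the AAV pair (1.32).

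**Figure D5:**
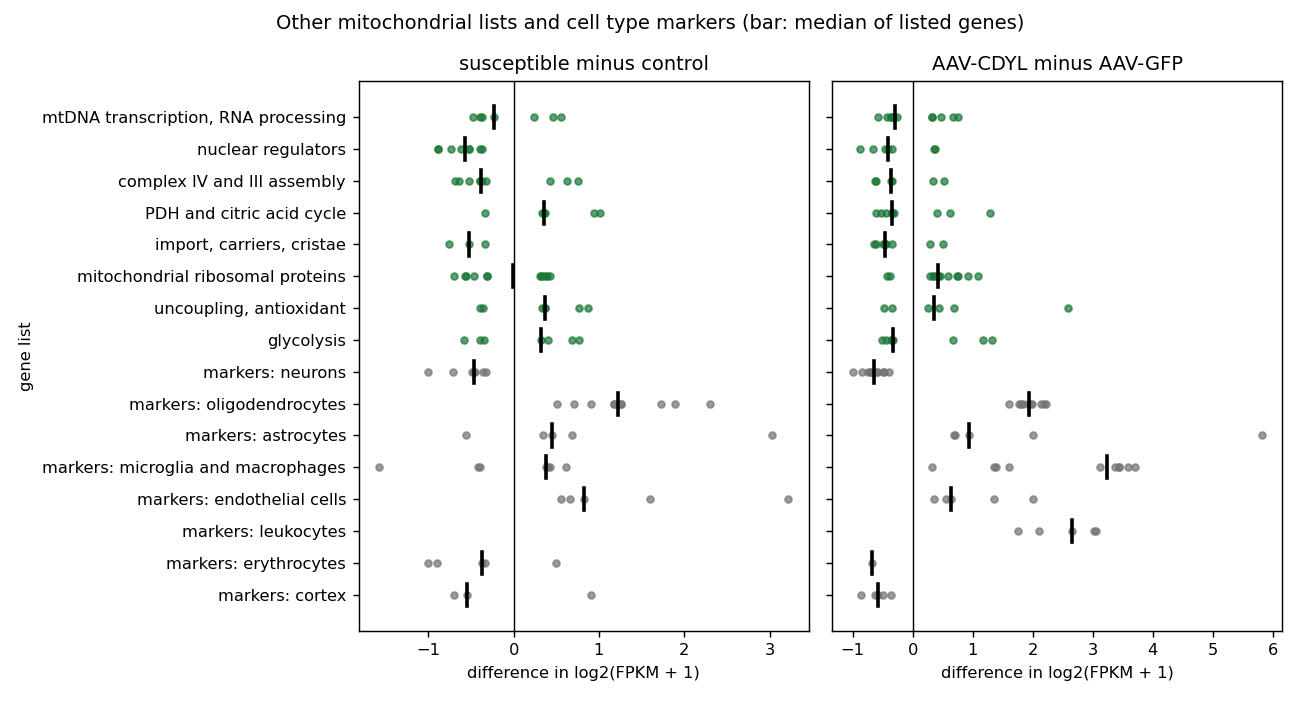
Difference in log2(FPKM + 1) of each listed gene of the mitochondrial and metabolic lists (green) and the cell type markers (grey), with a black bar at each list's median; the panels have different horizontal scales. Mitochondrial ribosomal proteins have a median near 0 on the left, where 6 genes lie above, 6 below and none near it. Their median on the right is 0.43. Neuron markers lie left of 0 in both panels.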

How the data were processed

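RNA of 4 libraries, 1 per group, was measured in 2 tables, 1 per pair. The authors deposited FPKM values with their p-values and q-values, made with Cuffdiff on mm10 per the submitters' processing notes. Which aligner, annotation and versions were used is not given in the sources used here. Per the labels' protocols, RNA came from frozen tissue and libraries from total RNA with a NEBNext Ultra kit; whether poly(A) RNA was selected is not stated, and this bears on ribosomal and mitochondrial RNA. The deposited log2 fold column was not used.

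Differences of log2(FPKM + 1) were taken within a table, with a floor of 1 FPKM and a size rule of 1.5-fold, in Python 3.11.15 (pandas 2.3.3, numpy 2.4.6, scipy 1.17.1), and the code was tested on simulated data. No test was run, since each group has 1 library. Depth was read from steps of low FPKM values of genes with 1 transcript of 3 to 20 kb, where 92.4% or more of the lowest values were whole steps (tolerance 0.15 of a step). Fragments behind a value were estimated from its FPKM, the full transcript length and this depth. A shorter effective length was not allowed for, so fragment counts of short transcripts may be too high and their intervals too narrow. About 3845 genes of the stress table and 5125 of the AAV table shared a locus with another listed gene, and their fragments are uncertain.

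The members and lists were chosen with earlier results of these data known. Named genes are all listed mitochondrial genes other than transfer RNAs, up to 4 nuclear members per complex and pair with the largest differences, tissue-specific isoforms, nuclear members that differ in direction, and up to 2 genes per other list and pair; Tfam, Nrf1, Yy1, Gabpa and other members outside this rule were chosen after values were seen. Alternatives were another pseudocount, floor, fold and scaling.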

Additional observations from a re-analysis of the deposited data

How the results depend on the processing

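Each value rests on 1 library per group, so leaving out a replicate was not possible, and no paired analysis was possible because each group has 1 library. The balance of higher and lower calls turned with scaling. Of the nuclear counts in the stress pair, 2 higher and 5 lower, the number higher was 4 with a pseudocount of 0.1 and 1 with a floor of 5 FPKM. At 2-fold, 0 were higher and 0 lower. Upper quartile scaling gave 5 higher and 2 lower, and centring on the median gene gave 0 and 13. The AAV pair, with 5 nuclear genes higher and 0 lower, gave 2 higher at 2-fold, and 2 higher and 4 lower after centring. Centring set the nuclear medians at -0.60 (stress) and 0.069 (AAV) and the mitochondrial medians at -0.68 and -0.79; by its construction it subtracts the medians of all genes, 0.24 and 0.30. The calls over all genes, 1006 higher and 575 lower in the stress pair, were 1183 and 448 after upper quartile scaling and 532 and 1918 after centring. For AAV-CDYL 2516 and 1159 became 2801 and 793, and 1630 and 3572. Depth limits the members near 1 FPKM, where few fragments lie behind a value.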
